A study of Mus musculus with 39 samples.

Results

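The genes examined here were 46 genes that copy DNA in S phase, chosen by name: every probe whose gene name on the array, or its current symbol, was one of the 46 was taken, which gave 63 probes. They were followed over 39 one-colour arrays of mouse oocytes and embryos, 3 arrays for each of 13 conditions, and all 46 were among the 14740 genes tested. Untreated samples were GV oocytes (fully grown, in prophase of meiosis), MII oocytes (mature and unfertilized), 1-cell, 2-cell, 4-cell and 8-cell embryos, morulae and blastocysts. Treated samples were embryos after T247 (1-cell, 2-cell, 4-cell) and after MGCD0103 (1-cell, 2-cell). Both agents are histone deacetylase inhibitors (HDACi): T247 is selective for HDAC3, and MGCD0103 acts mainly on HDAC1, HDAC2 and HDAC3. Each was given at 10 µM for 6 h, from 4 h after insemination, and then removed. Embryos were collected 12 h (1-cell), 24 h (2-cell) and 48 h (4-cell) after insemination, with no inhibitor in the controls. All labels gave the strain as B6D2F1 x ICR: MII oocytes came from B6D2F1 females 8 to 9 weeks old, hormone-treated to ovulate, and were fertilized in vitro with sperm of ICR males 15 to 20 weeks old. Each array held RNA pooled from 100 oocytes or embryos. In such pools, fewer cells and less RNA per cell cannot be told apart.

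A chromosome is copied once per cell cycle because origins are licensed and fired in separate steps. The origin recognition complex (Orc3, Orc4) with Cdc6 and Cdt1 loads the ring helicase Mcm2 to Mcm7 onto DNA before S phase, and geminin (Gmnn) blocks Cdt1 once S phase has begun. The kinase Cdc7 with its activator Dbf4, and then Cdc45 and the GINS complex (Gins1 to Gins4), switch the helicase on. Polymerase alpha and primase (Pola1, Pola2, Prim1, Prim2) start each strand, and polymerases epsilon (Pole, Pole2) and delta (Pold1, Pold2, Pold3) extend it, held by the ring clamp Pcna, which the RFC complex (Rfc1 to Rfc5) loads. Fen1 trims flaps on the lagging strand, RPA (Rpa1, Rpa2, Rpa3) coats single strands, Tipin, Timeless and Wdhd1 stabilise the fork, and Rrm1, Rrm2, Tyms and Tk1 supply nucleotides. The early embryo replicates from a store of maternal RNA and protein until its own genome is switched on, in the mouse mainly at the 2-cell stage.

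Promoters of these genes were read to show the sequence around their start sites. In the RefSeq promoter windows of GRCm38.p6, which run from 250 bases before to 50 after a start site, 37 of the 46 genes were found, with 43 windows. An E2F-type element (TTTCCCGC, TTTCGCGC, TTTGCCGC or TTTGGCGC on either strand), the letters through which E2F factors are known to time S-phase genes, was found in 14 of 37 genes (37.8%), against 2.61% of all 27025 genes with a window. A CCAAT box was found in 21 genes (56.8% against 41.1% of all genes), and a CHR-type element (TTTGAA or TTCGAA) in 9 (24.3% against 21.7%). Elements of these 3 kinds were searched separately. By role, E2F-type letters stood in 3 of 4 licensing genes, 5 of 7 MCM genes, 4 of 7 polymerase genes and 1 of 4 genes of kinase and helicase activation. They stood in 1 of 6 genes of the clamp and its loader, and in 0 of the 3 RPA, 2 fork protection and 4 nucleotide supply genes with a window.

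**Figure D1:**
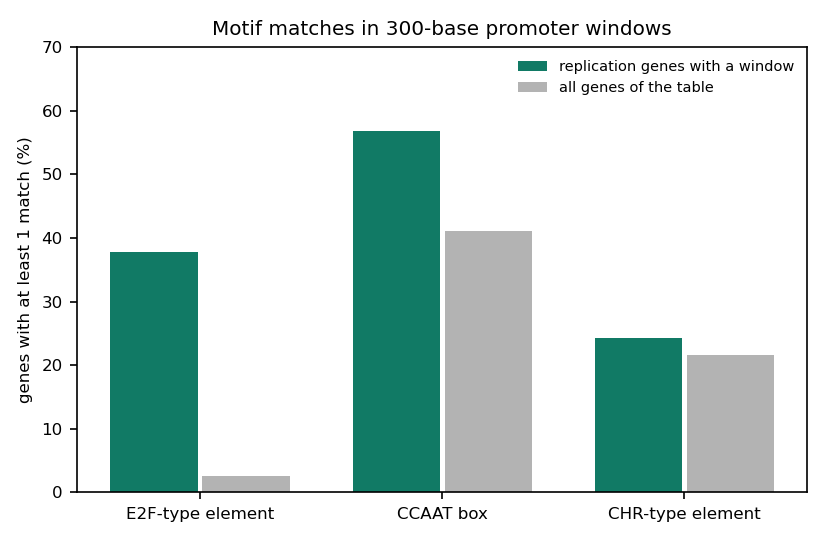
Share of genes with at least 1 match in the promoter window (vertical axis, percent, from 0) for each of 3 kinds of element, for the 37 replication genes with a window and for all 27025 genes with one. The bars for the E2F-type element stand at 37.8% and 2.61%.

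The windows of 6 genes are given 5′ to 3′ on the strand of the gene. They are 5 genes that return in the 2-cell comparisons and Mcm6, which has the most E2F-type matches when overlapping ones are counted. Capitals mark matches of the E2F-type, CCAAT and CHR-type letters.
Cdc6, chr11:98907901-98908200, plus strand: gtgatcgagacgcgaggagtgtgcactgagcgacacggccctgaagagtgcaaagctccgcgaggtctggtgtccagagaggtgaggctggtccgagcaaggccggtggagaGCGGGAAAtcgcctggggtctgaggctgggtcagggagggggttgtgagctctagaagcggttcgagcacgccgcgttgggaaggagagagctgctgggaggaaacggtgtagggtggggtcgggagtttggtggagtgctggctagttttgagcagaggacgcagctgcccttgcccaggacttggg
Cdt1, chr8:122567765-122568064, plus strand: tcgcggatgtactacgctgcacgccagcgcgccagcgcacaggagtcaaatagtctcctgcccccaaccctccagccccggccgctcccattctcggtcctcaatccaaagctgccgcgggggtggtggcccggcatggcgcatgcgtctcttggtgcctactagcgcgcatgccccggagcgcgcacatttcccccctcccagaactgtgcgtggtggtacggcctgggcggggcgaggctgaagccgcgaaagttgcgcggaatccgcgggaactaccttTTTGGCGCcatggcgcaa
Mcm8, chr2:132815891-132816190, plus strand: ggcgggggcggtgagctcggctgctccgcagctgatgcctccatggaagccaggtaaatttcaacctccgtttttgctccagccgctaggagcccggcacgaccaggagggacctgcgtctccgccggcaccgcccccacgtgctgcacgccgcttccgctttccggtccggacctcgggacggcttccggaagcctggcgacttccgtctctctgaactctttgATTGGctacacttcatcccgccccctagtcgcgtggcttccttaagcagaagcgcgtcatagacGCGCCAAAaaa
Pold1, chr7:44548766-44549065, minus strand: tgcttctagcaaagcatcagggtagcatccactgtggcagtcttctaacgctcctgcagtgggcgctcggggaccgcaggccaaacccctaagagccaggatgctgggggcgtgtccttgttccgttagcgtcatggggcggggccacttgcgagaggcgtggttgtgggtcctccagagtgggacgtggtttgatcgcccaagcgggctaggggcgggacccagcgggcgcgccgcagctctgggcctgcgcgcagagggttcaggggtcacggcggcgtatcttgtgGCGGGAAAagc
Mcm6, chr1:128359656-128359955, minus strand: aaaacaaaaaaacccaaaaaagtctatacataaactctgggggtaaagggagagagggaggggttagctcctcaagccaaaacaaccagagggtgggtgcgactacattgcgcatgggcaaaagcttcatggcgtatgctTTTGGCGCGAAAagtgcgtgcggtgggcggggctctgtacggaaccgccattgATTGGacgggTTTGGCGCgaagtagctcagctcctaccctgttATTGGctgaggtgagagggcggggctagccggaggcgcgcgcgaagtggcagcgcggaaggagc
Prim1, chr10:128014965-128015264, plus strand: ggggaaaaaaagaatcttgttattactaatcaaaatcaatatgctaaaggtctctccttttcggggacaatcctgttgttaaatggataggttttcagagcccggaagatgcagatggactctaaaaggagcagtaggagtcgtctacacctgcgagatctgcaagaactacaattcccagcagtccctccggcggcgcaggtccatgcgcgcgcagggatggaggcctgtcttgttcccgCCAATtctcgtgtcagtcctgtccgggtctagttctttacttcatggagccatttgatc
Cdc6, Cdt1, Mcm8 and Pold1 each had 1 E2F-type match, and Prim1 had a CCAAT box only. Mcm6 had 3 E2F-type matches. Those at -110 and -106 from the start site overlap on opposite strands, within 1 marked stretch. A match is a run of letters, and binding to it was not measured.

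Between 44.4 and 58.3% of the probes on an array were well above background. The labels were checked against marker genes. The summed signal of 8 oocyte genes was highest in GV oocytes (20.28 to 20.33, log2) and lowest in blastocysts (9.17 to 9.45). The summed signal of 5 genes of 2-cell genome activation was highest in untreated 2-cell embryos (15.93 to 16.18), next to 15.85 to 15.93 after T247. That of 6 blastocyst genes was highest in blastocysts (19.03 to 19.09). Some listed genes went other ways. Eif1a was at 10.61 in untreated 2-cell embryos and at 13.74 in blastocysts. At the 2-cell stage Zscan4c (11.29) and Tcstv1 (13.44) were higher after T247 (11.65 and 14.12) and MGCD0103 (12.01 and 13.81). Pou5f1 was at 14.49 in morulae and at 13.25 in blastocysts. The other genes of these lists had their highest mean at the named stage. One library stood apart: in untreated 2-cell replicate 1, 30 of the 46 genes differed by over 0.5 (log2) from the mean of the other two replicates (20 higher, 10 lower, from -2.30 to 2.40), toward the 1-cell mean in 33 of 46. The median SD of the 46 genes was 0.41 in the untreated 2-cell group and between 0.05 and 0.19 in the other 12 conditions. Numbers called among the 46 genes in comparisons with untreated 2-cell embryos are therefore given with and without that array. Treated and untreated arrays never shared a slide, so slide and treatment cannot be told apart. Untreated replicate 1 of every stage lay on one slide, and likewise replicates 2 and 3.

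Signals are on the log2 scale after smooth quantile normalization, and LFC is the log2 fold change between 2 group means, ± its SE, with n = 3 arrays a group. A gene was called when its LFC was at least 1 in size with an adjusted p (Benjamini-Hochberg, limma) below 0.05, and only such genes are said to rise or fall. Each gene had 1 variance over all 13 conditions, so SEs and p-values in comparisons with untreated 2-cell embryos understate the spread of that group. Signals of different genes come from different probes and are not compared. Of the 598 combinations of a gene and a condition, 596 were well above background on all 3 arrays. The exceptions were Tyms in untreated 2-cell embryos (1 of 3 arrays) and Cdc7 after MGCD0103 at the 2-cell stage (2 of 3).

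Across the untreated stages, the highest mean lay in GV oocytes for 23 of the 46 genes, in blastocysts for 10, in MII oocytes and in morulae for 6 each, and in 1-cell embryos for 1. The lowest lay at the 2-cell stage for 21 genes, at the 4-cell stage for 9 and in MII oocytes for 8. Such counts were not made for all genes tested, of which 48.9% fell from GV to MII oocytes and 34.0% from the 1-cell to the 2-cell stage. Whether these highs and lows are particular to replication genes was therefore not tested. The low at the 2-cell stage was also the most frequent under 2 other scalings, with 17 genes (quantile) and 13 (75th percentile), but the high in GV oocytes was not: it held for 2 and 1 genes, and the MII oocyte then had most (12 and 14). Genes differed widely in how far they moved, from 0.75 between the highest and the lowest stage mean for Tipin to 8.38 for Fen1. The median level of the 8 MCM genes was 14.04 in GV oocytes, 11.64 at the 2-cell stage and 14.04 in morulae, and that of the 7 genes of kinase and helicase activation was 12.90, 8.86 and 10.55.

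**Figure D2:**
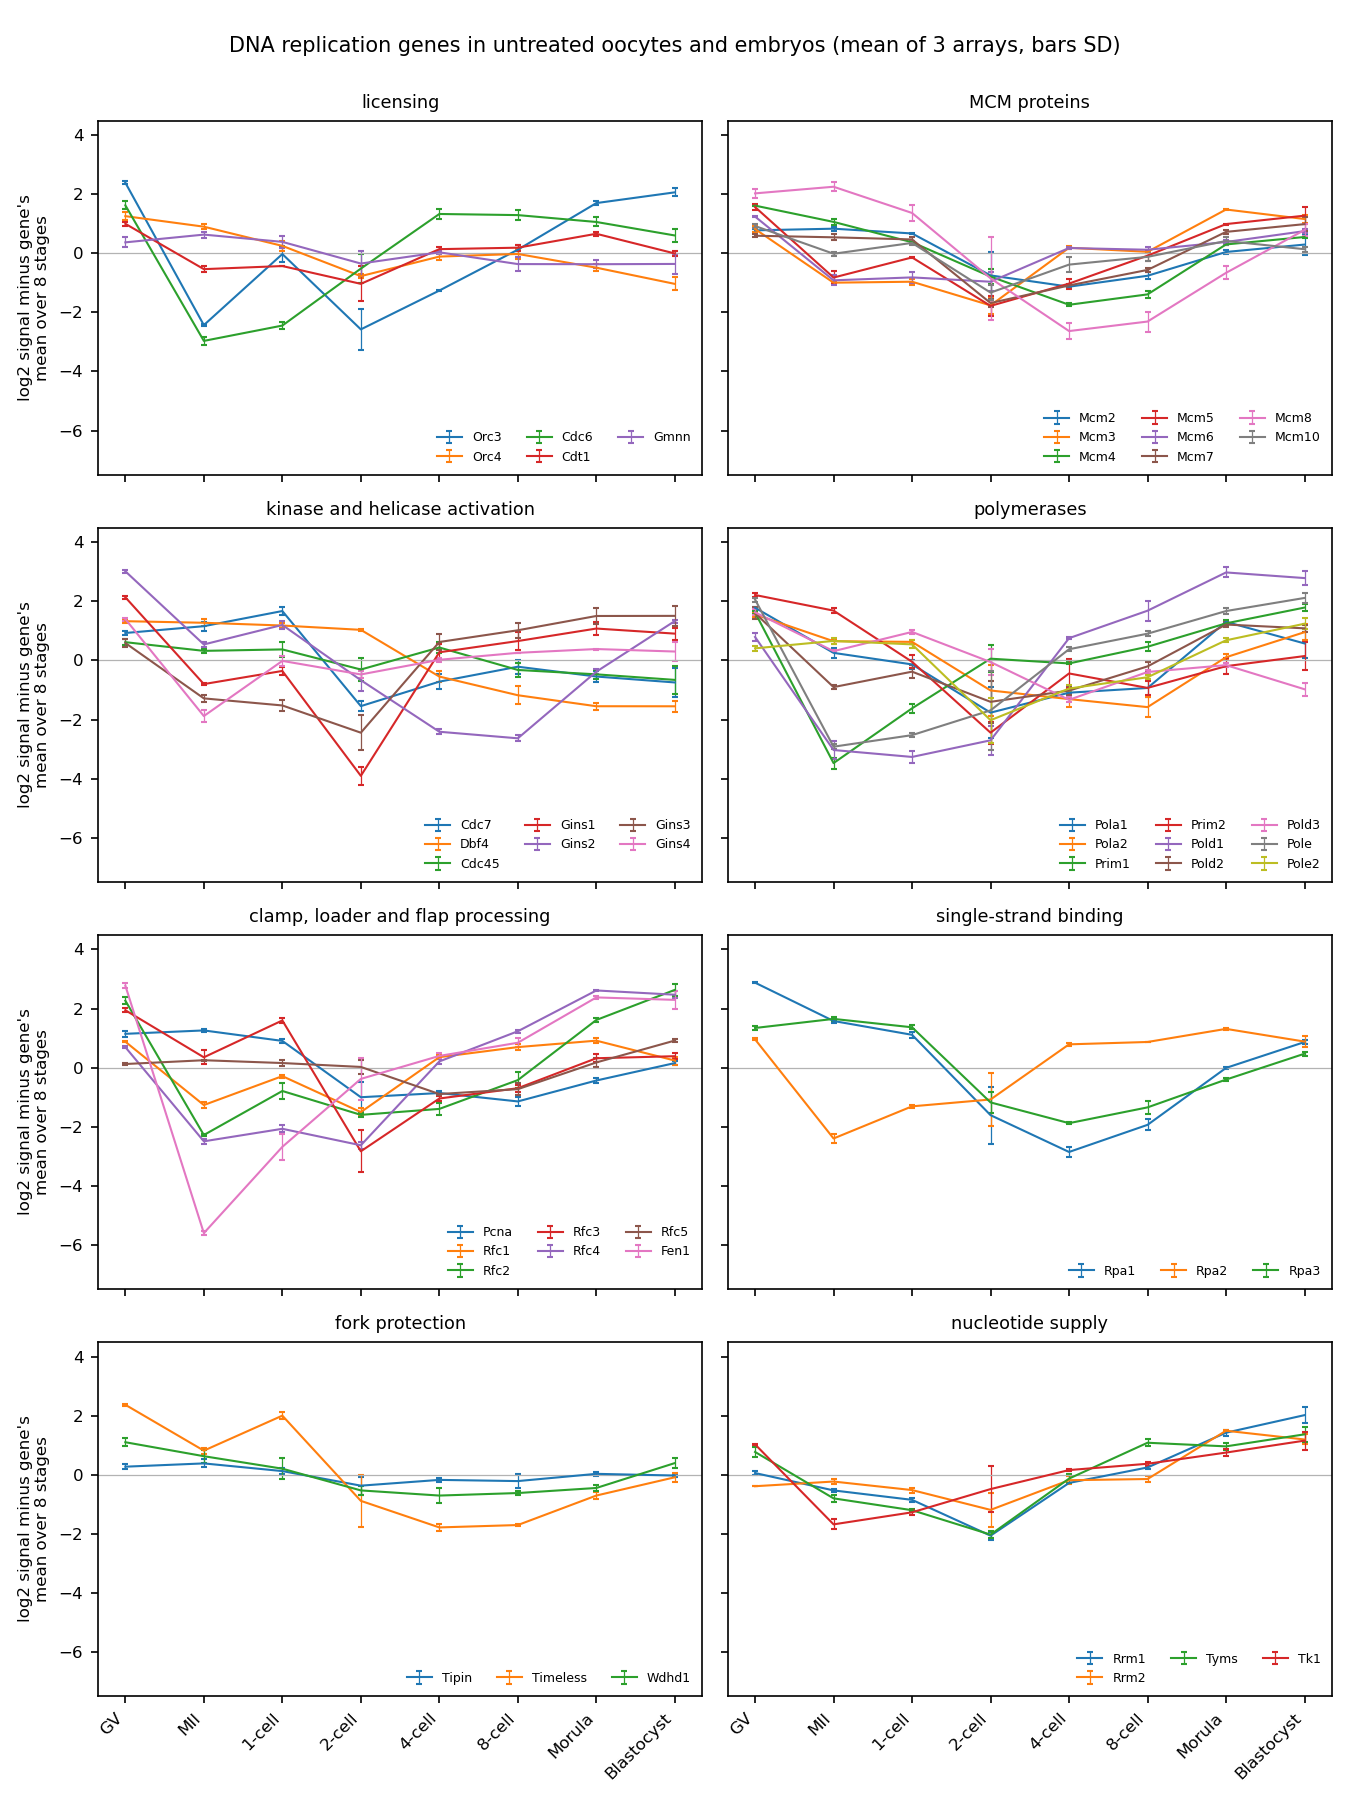
Log2 signal of each of the 46 genes minus the gene's own mean over stages (vertical axis) at the 8 untreated stages (horizontal axis), in 1 panel per role, with lines through the means of 3 arrays and bars for the SD. The lowest mean lies at the 2-cell stage for 21 genes, where the bars are also the longest, and Fen1 spans 8.38 from GV to MII oocytes.

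After smooth quantile normalization, many replication genes had a lower signal in MII than in GV oocytes, and 0 were called higher. A fall was called for 26 of 46 genes (56.5%) and a rise for 0, where 48.9% of all genes tested fell and 0.522% rose, and the median LFC was -1.53 for the 46 genes and -0.97 for all genes. Falls were called for 5 of 7 clamp genes, 6 of 9 polymerase genes, 4 of 7 genes of kinase and helicase activation and 3 of 8 MCM genes. With quantile scaling, which gives all arrays 1 distribution, and 75th percentile scaling, which sets that percentile equal on all arrays, 14 and 13 of the 26 falls kept their call, and 12 kept it under both: Cdc6, Orc3, Prim1, Pold1, Pole, Rfc2, Rfc4, Rpa2, Fen1, Gins1, Gins4 and Tk1. The calls over all 46 genes then split evenly between rises and falls under quantile scaling (14 and 14) and were 16 and 13 under 75th percentile scaling. Of the 12 falls, those of Cdc6, Orc3 and Rfc4 had another probe, well above background on at least 30 of 39 arrays, of opposite sign. On the 75th percentile scale these probes gave 1.38, 0.58 and 0.83, where the probes used gave -3.29, -3.49 and -1.85.

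Fen1, the flap nuclease, was at 14.24, 14.23 and 14.36 on the 3 GV arrays and at 5.95, 5.90 and 5.83 on the 3 MII arrays. It fell by 8.38 ± 0.21, or 334-fold (adjusted p = 9.63e-25), with the groups far apart, and by 6.58 to 8.41 over the alternatives. Prim1, the catalytic subunit of primase, stood at 13.02, 12.94 and 12.97 in GV oocytes and at 8.04, 7.90 and 7.68 in MII oocytes, an LFC of -5.10 ± 0.14 (adjusted p = 1.34e-23). Pole, the catalytic subunit of polymerase epsilon, stood at 12.61, 12.56 and 12.48 against 7.67, 7.49 and 7.54, an LFC of -4.98 ± 0.30 (adjusted p = 1.5e-15). None of these 3 genes had overlapping groups. All 26 falls had the same sign on each of the 3 slides, which adds little, since the same arrays and the fold threshold picked them.

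From the MII oocyte to the 1-cell embryo, rises were called for 8 genes (17.4%, against 17.3% of all genes) and a fall for 1 (2.17%, against 5.67%). The 8 were Fen1, Orc3, Gins4, Prim1, Rfc2, Rfc3, Timeless and Rpa2, and 7 of them, all but Rpa2, kept the call under both other scalings. Fen1 reached 9.12, 8.30 and 9.02, a rise of 2.92 ± 0.21 (7.58-fold, adjusted p = 1.16e-12) that left it far below its GV level. Orc3, a subunit of the origin recognition complex, went from 8.03, 7.94 and 8.00 to 10.59, 10.09 and 10.51 (LFC 2.41 ± 0.18, adjusted p = 3.9e-12). A second Orc3 probe, well above background on 30 of 39 arrays, gave -0.10, where the probe used gave 2.055 (75th percentile scale). Gins4 went from 9.77, 10.07 and 10.18 to 11.90, 11.69 and 12.03 (LFC 1.87 ± 0.12, adjusted p = 3.06e-14). The groups of these 3 genes did not overlap. The single fall was Prim2, the large primase subunit, from 12.44, 12.26 and 12.30 to 10.44, 10.85 and 10.52 (LFC -1.73 ± 0.21, adjusted p = 4.3e-08). Its call was lost with the mean of its 2 probes (LFC -0.92), which gave -2.12 (the probe used) and -0.46 on the 75th percentile scale.

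Between the 1-cell and the 2-cell stage, 24 of the 46 genes fell (52.2%, against 34.0% of all genes) and 3 rose (6.52%, against 18.3%). Falls were called for 6 of 8 MCM genes and 6 of 9 polymerase genes, and the 3 rises were Fen1, Cdc6 and Prim1. All 3 rises and 17 of the 24 falls kept their call under both other scalings, where the counts were 5 rises and 18 falls (quantile) and 6 and 17 (75th percentile). Without untreated 2-cell replicate 1 the counts were 5 and 23, with Pole and Tk1 gained among the rises and Orc4 lost.

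Rfc3, a subunit of the clamp loader, had the largest fall, from 11.32, 11.15 and 11.19 to 7.58, 6.55 and 6.23 (LFC -4.43 ± 0.20, 21.6-fold, adjusted p = 2.99e-18). Gins1, which completes the helicase, fell from 11.31, 11.08 and 11.28 to 7.40, 7.99 and 7.62 (LFC -3.55 ± 0.16, adjusted p = 1.79e-18). Cdc7, the kinase that fires origins, fell from 8.16, 8.45 and 8.35 to 5.22, 5.17 and 4.91 (LFC -3.22 ± 0.19, adjusted p = 1.86e-15). In each of these genes all 2-cell arrays lay below all 1-cell arrays. Of the rises, Fen1 reached 10.29, 11.63 and 11.43 (LFC 2.30 ± 0.21, adjusted p = 4.93e-11), with replicate 1 lowest. Prim1 rose from 9.91, 9.66 and 9.61 to 10.89, 11.76 and 11.58 (LFC 1.68 ± 0.14, adjusted p = 1.11e-11). Cdc6, the loader of the helicase, rose from 7.52, 7.43 and 7.64 to 8.88, 9.70 and 9.79 (LFC 1.93 ± 0.16, adjusted p = 1.01e-11). The Cdc6 rise lost its call when the mean of its 2 probes was used.

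Between the 2-cell and 4-cell stages the balance turned. Rises were called for 18 genes (39.1%, against 25.8% of all genes) and falls for 5 (10.9%, against 34.2%), and 15 rises and all 5 falls kept their call under both other scalings. Without untreated 2-cell replicate 1 the counts were 18 and 4: Cdt1, Mcm6, Mcm8 and Rpa1 lost their calls, and Mcm10, Mcm4 and Pola1 gained one. Gins1, which had fallen 11.7-fold, rose by 4.19 ± 0.16 (18.2-fold, adjusted p = 1.55e-20) to 11.56, 11.91 and 12.09. Pold1, the catalytic subunit of polymerase delta, rose from 7.49, 7.09 and 6.53 to 10.50, 10.53 and 10.45 (LFC 3.46 ± 0.20, adjusted p = 3.33e-16). Gins3 rose from 9.18, 10.18 and 10.22 to 12.62, 13.07 and 13.10 (LFC 3.07 ± 0.20, adjusted p = 6.32e-15). In all 3 genes every 4-cell array lay above every 2-cell and every 1-cell array.

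The 5 falls at the same step were Mcm8, Gins2, Dbf4, Pold3 and Rpa1. Mcm8, an MCM protein known for roles in meiosis and recombination, had 8.37, 5.76 and 6.18 at the 2-cell stage and 5.28, 4.72 and 4.96 at the 4-cell stage (LFC -1.79 ± 0.36, adjusted p = 5.43e-05), and its call rested on the high value of 2-cell replicate 1. Gins2 fell from 9.02, 8.51 and 8.28 to 6.84, 6.78 and 6.95 (LFC -1.75 ± 0.12, adjusted p = 5.98e-14) while 2 other GINS subunits, Gins1 and Gins3, rose. Dbf4, the activator of Cdc7, fell from 13.19, 13.11 and 13.11 to 11.59, 11.36 and 11.70 (LFC -1.58 ± 0.12, adjusted p = 2.4e-13).

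Few genes moved from the 4-cell to the 8-cell stage, with 3 rises (6.52%, against 8.04% of all genes) and 0 falls (against 6.66%). Orc3 rose from 9.13, 9.18 and 9.18 to 10.55, 10.68 and 10.39 (LFC 1.38 ± 0.18, adjusted p = 6.6e-07). Tyms, thymidylate synthase, rose from 5.72, 5.76 and 6.02 to 7.04, 6.94 and 7.17 (LFC 1.21 ± 0.14, adjusted p = 1.15e-07). Rfc4 rose from 11.46, 11.57 and 11.43 to 12.45, 12.55 and 12.53 (LFC 1.02 ± 0.10, adjusted p = 3.48e-09), just past the fold threshold. The groups of these genes did not overlap. Without 8-cell replicate 3 the number called was 7.

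The morula brought 19 rises (41.3%, against 31.8% of all genes) and 0 falls (against 6.23%), among them 5 of 8 MCM genes, 5 of 9 polymerase genes and 4 of 7 clamp genes. All genes tested had a median LFC of 0.56 at this step and the 46 genes 0.80. Under the other scalings the rises and falls were 7 and 2 (quantile) and 4 and 3 (75th percentile), and 4 rises kept their call under both, those of Gins2, Pola1, Rfc2 and Rpa1. Gins2 rose from 6.66, 6.72 and 6.51 to 8.98, 8.80 and 8.88 (LFC 2.26 ± 0.12, adjusted p = 8.53e-16). Pola1, the catalytic subunit of polymerase alpha, rose from 9.42, 9.89 and 9.29 to 11.75, 11.78 and 11.80 (LFC 2.24 ± 0.24, adjusted p = 2.02e-09). Rfc2, a clamp loader subunit, rose from 9.51, 10.05 and 9.65 to 11.86, 11.77 and 11.70 (LFC 2.04 ± 0.13, adjusted p = 3.9e-14). Each of these genes had all morula arrays above all 8-cell arrays.

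From morula to blastocyst 3 genes rose (6.52%, against 19.3% of all genes) and 0 fell (against 7.87%). The counts were 1 and 1 under quantile scaling and 2 and 1 under 75th percentile scaling, and the Gins2 rise alone was kept under both. Gins2 rose further to 10.65, 10.61 and 10.55 (LFC 1.72 ± 0.12, adjusted p = 6.95e-13). Mcm8 rose from 6.72, 7.17 and 6.98 to 8.24, 8.35 and 8.64 (LFC 1.45 ± 0.36, adjusted p = 0.00117). Rfc2 rose to 12.59, 12.80 and 12.99 (LFC 1.02 ± 0.13, adjusted p = 1.08e-07). The groups of all 3 genes were separate.

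The comparisons of inhibitor-treated with untreated embryos ask which of these transcripts differ after HDAC inhibition. The study reports that MGCD0103 arrests embryo development and proposes that T247 delays it. Embryos were collected by time after insemination, so a lag in development and a response of a gene cannot be told apart here. The part of such a lag in the differences was not tested. At the 1-cell stage few were called with the probes used, although a second Rfc5 probe, described below, was higher after both agents. T247 raised 2 of 46 genes (4.35%, against 5.53% of all genes) and lowered 0 (against 0.821%), and MGCD0103 raised and lowered 0 (against 3.56% and 0.611%). For MGCD0103, 10 genes had an adjusted p below 0.05 and 19 an unadjusted p below 0.05 in limma, with LFCs from -0.48 to 0.93. Tyms was at 6.15, 6.20 and 6.24 after T247 and at 4.79, 4.76 and 4.74 without it (LFC 1.43 ± 0.14, 2.70-fold, adjusted p = 1.96e-08). Fen1 was at 9.97, 9.81 and 9.90 against 9.12, 8.30 and 9.02 (LFC 1.08 ± 0.21, adjusted p = 0.000344). Neither gene's groups overlapped. The Fen1 call was lost without untreated 1-cell replicate 2, the lowest array, and the Tyms call with normexp background correction.

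At the 2-cell stage both agents lowered more of these genes than they raised, as was so for all genes tested. For MGCD0103 the balance was even under 75th percentile scaling (counts below). T247 lowered 8 genes (17.4%, against 17.2% of all genes) and raised 1 (2.17%, against 8.33%). MGCD0103 lowered 10 (21.7%, against 16.3%) and raised 3 (6.52%, against 11.7%). The median LFC of the 46 genes was -0.41 for T247 and -0.11 for MGCD0103, where all genes had -0.28 and 0.04. The falls included licensing, MCM, polymerase and nucleotide supply genes for both agents, the clamp loader gene Rfc2 for T247, and Fen1 and the single-strand binding gene Rpa2 for MGCD0103. Of the 7 genes of kinase and helicase activation and the 3 of fork protection 0 were called for either agent, but without untreated replicate 1 Gins3 and Timeless were called for MGCD0103. The untreated arrays are shared, so the lists of the 2 agents are not independent. Each agent's values follow for the 8 called genes with the largest LFC.

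**Figure D3:**
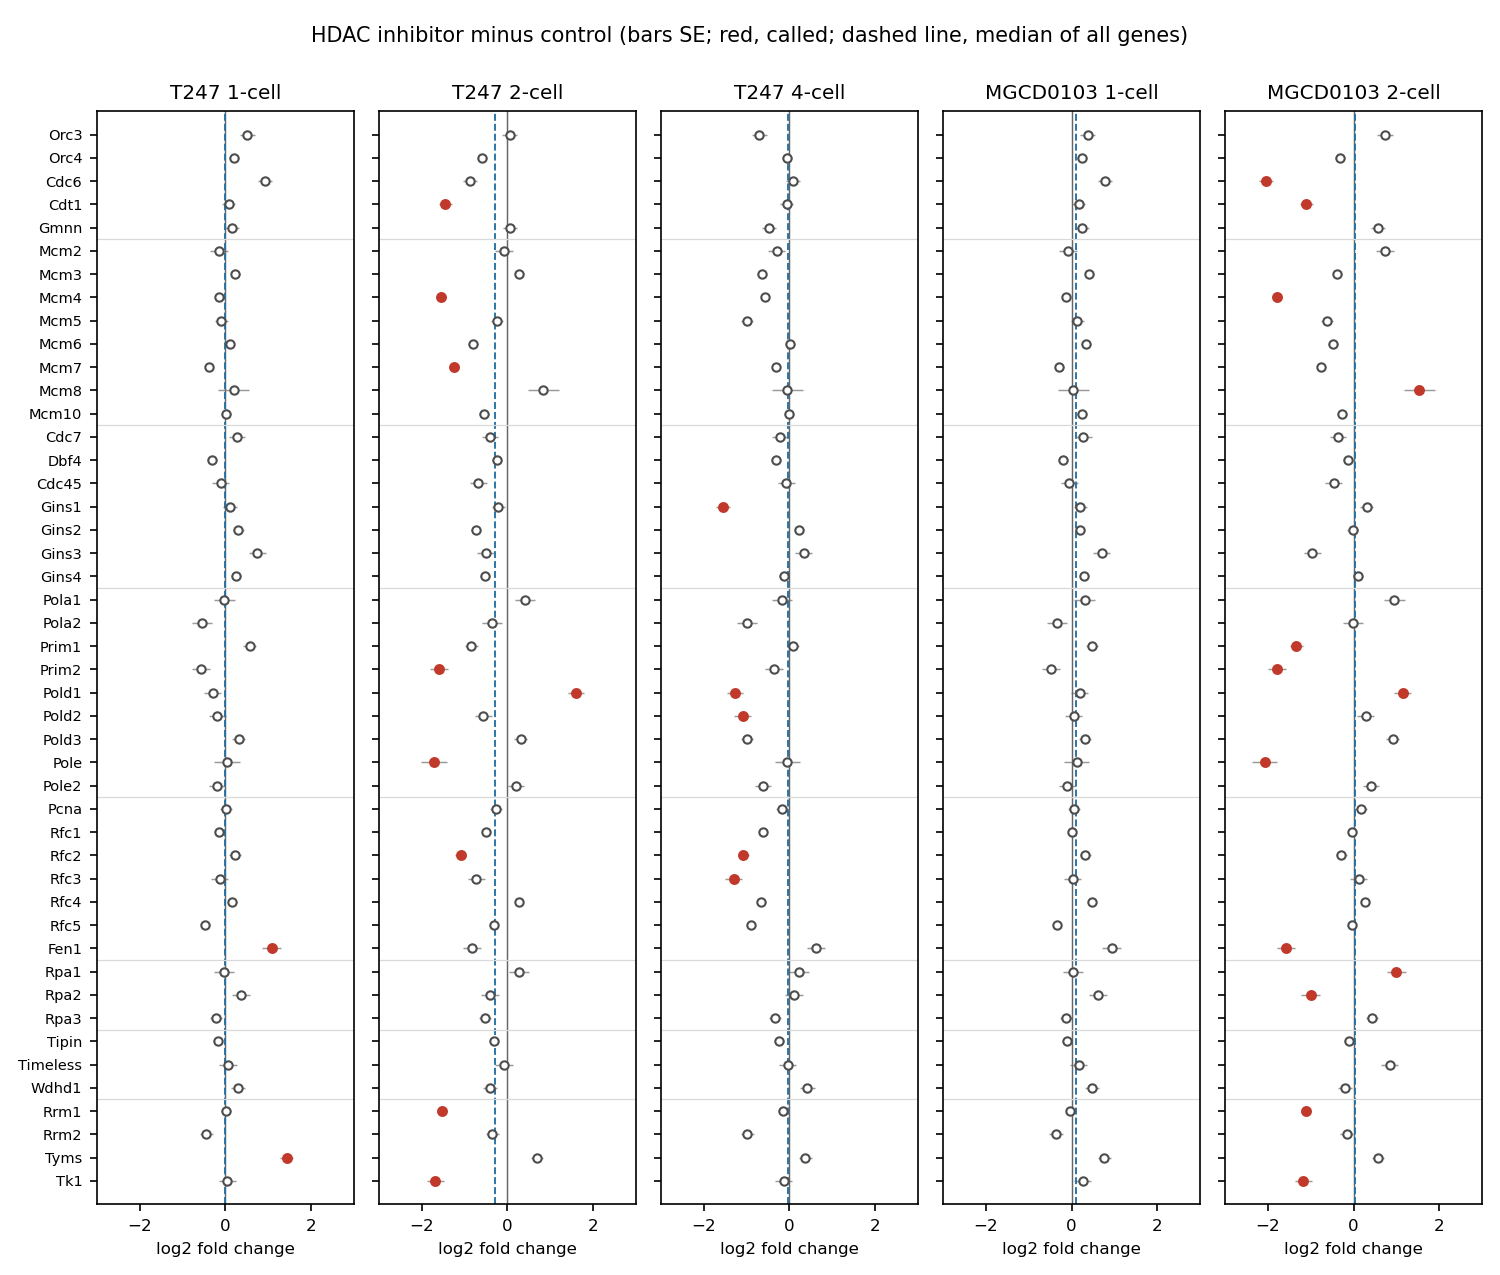
LFC of each of the 46 genes (n = 3 arrays a group) in the 5 comparisons of treated with untreated embryos (horizontal axis, log2; bars, SE; filled red points, called; dashed line, median of all genes). The 1-cell panels hold 2 called genes for T247, Tyms and Fen1, and 0 for MGCD0103, and the 2-cell panels hold 9 called genes for T247 and 13 for MGCD0103.

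Of the genes of strand synthesis, Pole stood at 7.26, 9.68 and 9.45 in untreated 2-cell embryos, with replicate 1 far below the others. It stood at 7.21, 7.02 and 6.999 after T247 (LFC -1.72 ± 0.30, 3.30-fold, adjusted p = 1.47e-05) and at 6.75, 6.79 and 6.61 after MGCD0103 (LFC -2.08 ± 0.30, 4.23-fold, adjusted p = 9.16e-07). The T247 arrays lay only just below untreated replicate 1, and without that replicate the LFCs were -2.49 and -2.85. Prim2 was at 7.78, 8.51 and 8.31 in untreated embryos, at 6.73, 6.32 and 6.73 after T247 (LFC -1.60 ± 0.21, adjusted p = 1.75e-07) and at 6.58, 6.39 and 6.24 after MGCD0103 (LFC -1.80 ± 0.21, adjusted p = 2.45e-08), with no overlap. Both Prim2 calls were lost with the mean of its 2 probes (LFC -0.50 and -0.75). The second probe, well above background on 24 of 39 arrays, went the other way: on the 75th percentile scale it gave 0.83 after T247 and 0.41 after MGCD0103, where the probe used gave -1.35 and -1.66. Prim1, the other primase subunit, was at 10.89, 11.76 and 11.58 in untreated embryos and at 9.91, 10.11 and 10.20 after MGCD0103 (LFC -1.34 ± 0.14, adjusted p = 5.36e-09). Its LFC after T247 was -0.84, short of the fold threshold, and -1.10 without untreated replicate 1, when it was called. Pold1, the polymerase delta subunit, ran the other way: untreated embryos had 7.49, 7.09 and 6.53, T247-treated embryos 8.56, 8.59 and 8.75 (LFC 1.60 ± 0.20, 3.03-fold, adjusted p = 4.92e-08). After MGCD0103 it had 8.03, 8.28 and 8.24, an LFC of 1.15, also called.

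Of the genes of licensing and the helicase, Mcm4, a subunit of the ring, showed the tightest difference. It was at 12.85, 13.24 and 13.32 in untreated embryos, at 11.69, 11.58 and 11.48 after T247 (LFC -1.55 ± 0.09, adjusted p = 1.16e-13) and at 11.41, 11.39 and 11.26 after MGCD0103 (LFC -1.79 ± 0.09, adjusted p = 2.83e-15). Mcm7 was at 11.67, 11.83 and 11.55 without and at 10.40, 10.48 and 10.44 with T247 (LFC -1.25 ± 0.10, adjusted p = 1.92e-11). Its LFC after MGCD0103 was -0.76, short of the fold threshold, so that of the ring subunits Mcm4 and Mcm7 fell after T247 and Mcm4 after MGCD0103. Cdt1, the licensing factor, was at 13.04, 14.06 and 14.09 without and at 12.30, 12.23 and 12.32 with T247 (LFC -1.45 ± 0.15, adjusted p = 2.91e-09), and its LFC after MGCD0103 was -1.11, also called. Cdc6 was at 8.88, 9.70 and 9.79 without and at 7.19, 7.46 and 7.57 with MGCD0103 (LFC -2.05 ± 0.16, 4.13-fold, adjusted p = 1.5e-11), with no overlap. Mcm8 was called higher after MGCD0103 although its groups overlapped. It had 8.34, 8.31 and 8.27 against 8.37, 5.76 and 6.18 (LFC 1.54 ± 0.36, adjusted p = 0.000679), and its LFC was 2.34 without untreated replicate 1.

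Of the remaining called genes, Tk1, the thymidine kinase of the salvage pathway, was at 11.34, 12.76 and 12.63 in untreated embryos and at 10.43, 10.63 and 10.61 after T247 (LFC -1.69 ± 0.20, adjusted p = 2.9e-08). After MGCD0103 it was at 11.15, 11.05 and 10.999 (LFC -1.18 ± 0.20, adjusted p = 1.13e-05). Untreated replicate 1 was the lowest control in both. Rrm1, the large subunit of ribonucleotide reductase, was at 9.35, 9.61 and 9.38 without and at 7.81, 8.02 and 7.92 with T247 (LFC -1.53 ± 0.11, adjusted p = 2.8e-12), and its LFC after MGCD0103 was -1.11, also called. Fen1 was at 10.29, 11.63 and 11.43 without and at 9.35, 9.60 and 9.68 with MGCD0103 (LFC -1.57 ± 0.21, adjusted p = 2.97e-07). Neither gene's groups overlapped. Rfc2 (LFC -1.09) completed the T247 list, and Rpa1 (1.00) and Rpa2 (-1.004), subunits of the single-strand binding complex, completed that of MGCD0103. Rpa1 and Rpa2 lay at the fold threshold with overlapping groups.

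**Figure D4:**
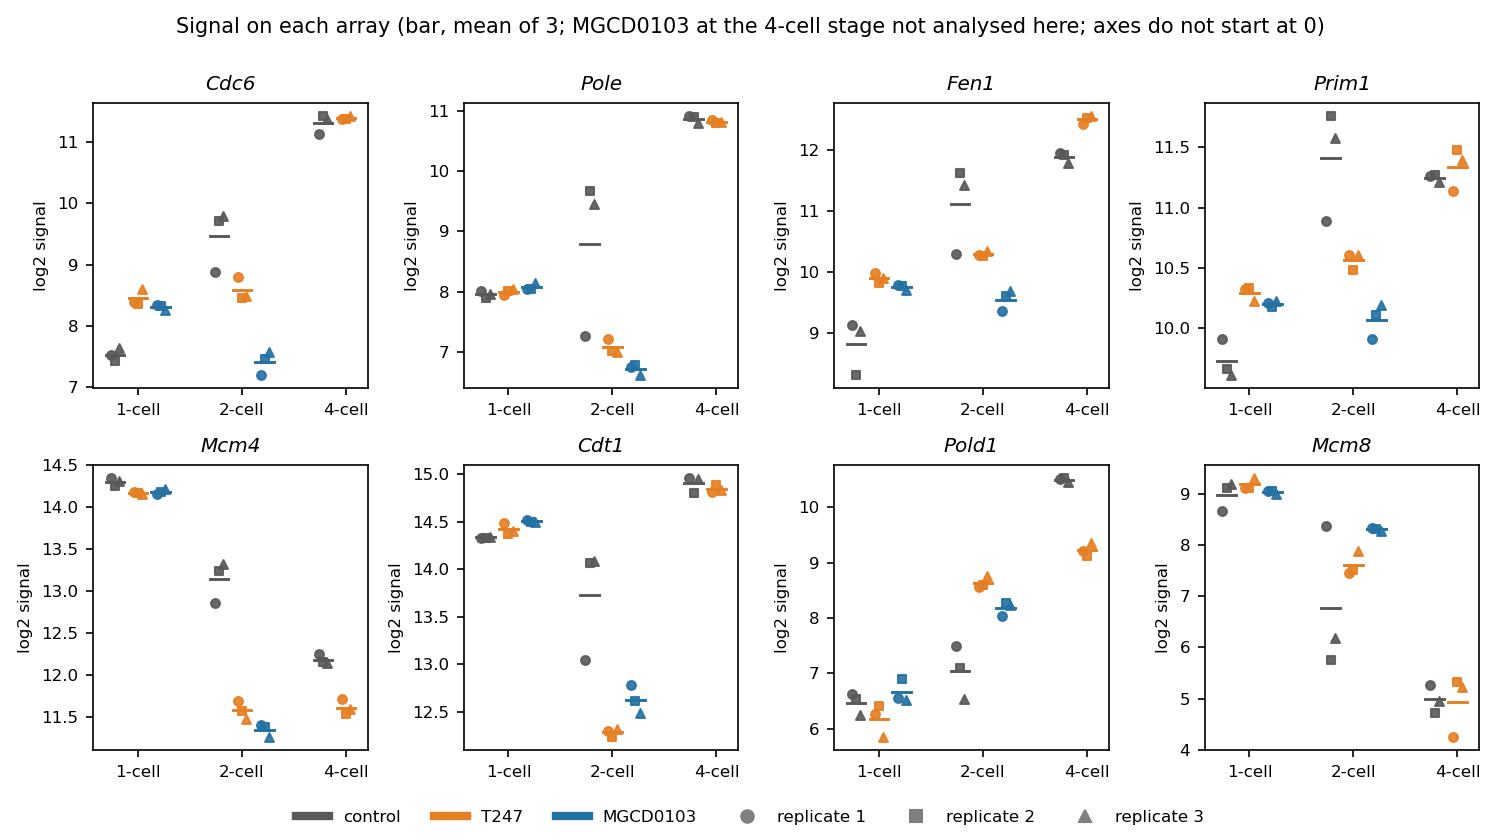
Log2 signal (vertical axis, not from 0) of 8 genes on each array of control (untreated), T247 and MGCD0103 embryos, by stage (MGCD0103 at 2 stages); points are arrays, with a shape for each replicate number, and bars are means of 3. At the 2-cell stage untreated replicate 1 (circle) lies apart for Pole, Fen1 and Mcm8, and the treated Mcm4 arrays, 11.26 to 11.69, lie below the untreated ones, 12.85 to 13.32.

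The 2-cell calls depended on the untreated arrays. For MGCD0103, leaving out untreated replicate 3 left 8 calls: Cdt1 (LFC -0.93), Pold1 (0.89), Tk1 (-0.98), Rpa1 (0.75) and Rpa2 (-0.76) lost theirs. Leaving out replicate 2 left 9, with Cdt1 (-0.94), Tk1 (-0.92), Rpa1 (0.70) and Rpa2 (-0.73) lost. Without replicate 1 the calls for both agents were kept. Those for T247 became 2 rises and 11 falls, with Cdc6, Fen1, Mcm8 and Prim1 gained, and those for MGCD0103 became 8 rises and 11 falls, with Gins3, Mcm2, Orc3, Pola1, Pold3 and Timeless gained. With quantile scaling the rises and falls were 2 and 7 for T247 and 6 and 9 for MGCD0103, and with 75th percentile scaling 3 and 5, and 6 and 6. The falls of Mcm4, Prim2, Pole, Rrm1 and Tk1 and the rise of Pold1 after T247 were kept under both, as were the falls of Mcm4, Cdc6, Prim1, Prim2, Pole and Fen1 and the 3 rises after MGCD0103. For Gmnn, whose signal came from the brighter of 2 probes, the probes disagreed. Scaled to the 75th percentile, they gave LFCs of 0.62 and -2.53 after MGCD0103 and 0.25 and -1.74 after T247. A second Rfc5 probe, well above background on 30 of 39 arrays, was higher in every comparison of treated with untreated embryos. On the same scale it gave 1.98, 1.90 and 1.95 after T247, from the earliest to the latest stage, and 1.25 and 1.24 after MGCD0103. The Rfc5 probe used gave -0.60, -0.13 and -1.06 after T247, and -0.53 and 0.02 after MGCD0103, and was not called.

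Of the marker lists of other cells, the cumulus and granulosa sum was lower after both agents, and the oocyte and sperm sums were lower after T247 and overlapped with the controls after MGCD0103. The summed signal of 9 cumulus and granulosa genes was 13.76 to 13.82 in untreated 2-cell embryos, 12.95 to 13.02 after T247 and 13.39 to 13.49 after MGCD0103, with 2, 3 and 2 of the genes well above background on all 3 arrays. Foxl2 made up nearly all of that sum, with means of 13.76, 12.94 and 13.38, while Ptx3, Inhba and Cyp11a1 were above background on 0 of these arrays. That of 8 oocyte genes was 17.55 to 17.64, 17.12 to 17.23 and 17.60 to 17.65, with all 8 above background. That of 7 sperm genes was 9.94 to 10.46, 9.32 to 9.68 and 10.36 to 10.49. Most of it was Prm2, with means of 9.81, 9.31 and 10.31, while Tnp2, Odf1 and Smcp were above background on 0 of these arrays. Prm2 was at 12.54 in GV oocytes, before any contact with sperm, so the sum is no clear measure of sperm. The part of other cells in the results was not tested.

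At the 4-cell stage T247 lowered 5 genes (10.9%, against 6.41% of all genes) and raised 0 (against 11.0%), and the median LFC was -0.23 for the 46 genes and -0.03 for all genes. Gins1 was at 10.36, 9.99 and 10.55 with and at 11.56, 11.91 and 12.09 without T247 (LFC -1.55 ± 0.16, 2.93-fold, adjusted p = 4.98e-09). Rfc3 was at 7.30, 7.09 and 7.43 against 8.49, 8.68 and 8.55 (LFC -1.30 ± 0.20, adjusted p = 4.01e-06). Both belong to the genes that fell most on the way to the 2-cell stage. Pold1, which T247 had raised a stage earlier, was now lower, at 9.22, 9.11 and 9.35 against 10.50, 10.53 and 10.45 (LFC -1.27 ± 0.20, adjusted p = 4.48e-06). Pold2, a further polymerase delta subunit, was at 7.07, 7.13 and 6.69 against 8.15, 8.13 and 7.89 (LFC -1.09 ± 0.20, adjusted p = 4.41e-05). Rfc2 was at 7.64, 7.50 and 7.90 against 8.69, 8.98 and 8.61 (LFC -1.08 ± 0.13, adjusted p = 1.22e-07). The groups of all 5 genes were separate. The falls of Pold1, Rfc3 and Gins1 kept their call under both other scalings. Without T247 replicate 1 or without untreated replicate 2 at this stage, 8 genes were called.

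**Figure D5:**
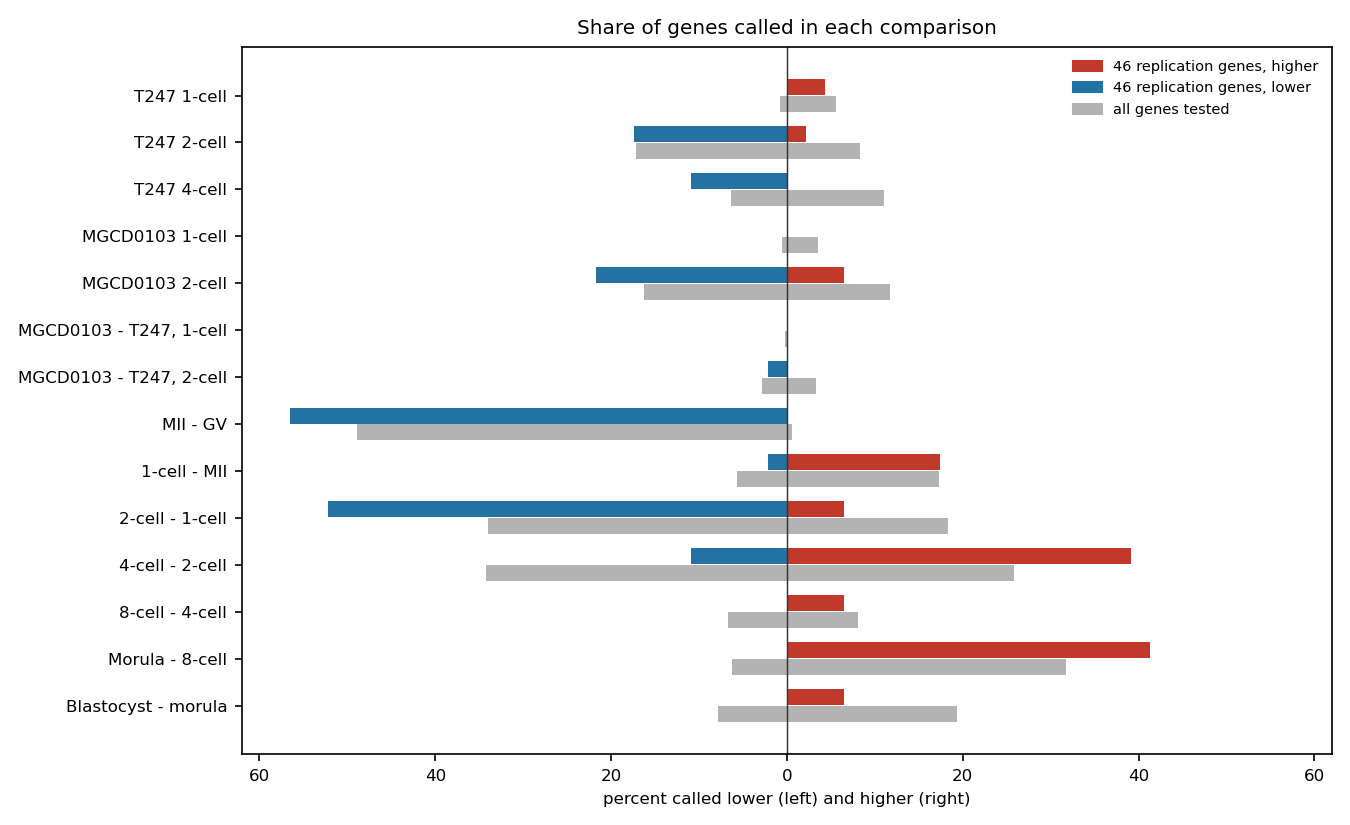
Percent of the 46 genes and of all 14740 genes tested that were called lower (to the left of 0) or higher (to the right) in each of 14 comparisons, coloured for the 46 genes and grey for all genes. The share lower from the 1-cell to the 2-cell stage is 52.2% against 34.0%, and the share lower after T247 at the 2-cell stage is 17.4% against 17.2%.

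The 2 agents were compared at the same dose and time, which gave 1 pair at each stage. At the 1-cell stage 0 of 46 genes differed in either direction (0.0611% of all genes were higher and 0.224% lower after MGCD0103 than after T247), with 1 gene at an adjusted p below 0.05 and 3 at an unadjusted p below 0.05 in limma. The 95% intervals of all 46 differences lay within 1 log2 unit of 0, from -0.96 to 0.89. At the 2-cell stage 1 gene was lower (2.17%, against 2.82% of all genes) and 0 were higher (against 3.32%), and 33 of 46 intervals lay within 1 unit of 0, with bounds from -1.51 to 1.44. The gene was Cdc6, with 7.19, 7.46 and 7.57 after MGCD0103 and 8.80, 8.45 and 8.49 after T247 (LFC -1.17 ± 0.16, 2.25-fold, adjusted p = 5.48e-06, 95% interval -1.51 to -0.83). The groups did not overlap. The call was lost with normexp background correction and with the mean of the 2 Cdc6 probes. The agents lay on different slides, so agent and slide cannot be told apart here either.

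Cdc6, which the study named as a hub gene after MGCD0103, crossed most of these comparisons. In GV oocytes it was at 11.45, 11.68 and 11.68, and in MII oocytes at 6.89, 7.17 and 6.96. After the 1-cell (7.43 to 7.64) and 2-cell (8.88 to 9.79) values given above it reached 11.13, 11.42 and 11.38 at the 4-cell stage, then 11.08 to 11.43 at the 8-cell stage, 10.93 to 11.21 in morulae and 10.41 to 10.81 in blastocysts. The order of the stage means was thus GV oocyte, 4-cell and 8-cell, morula, blastocyst, 2-cell, 1-cell and MII oocyte, with overlap between the 4-cell, 8-cell and morula arrays. At the 1-cell stage it was at 8.38, 8.36 and 8.60 after T247 (LFC 0.92, adjusted p = 0.000121) and at 8.34, 8.32 and 8.26 after MGCD0103 (LFC 0.78, adjusted p = 0.00136), both above all untreated arrays and both short of the fold threshold. At the 2-cell stage its LFC after T247 was -0.88 (adjusted p = 4.23e-05), and at the 4-cell stage it was 0.08 (adjusted p = 0.718). Over the first cleavage the signal thus went up in untreated embryos (LFC 1.93), stayed within 8.36 to 8.80 after T247 and lay at 8.26 to 8.34 and then at 7.19 to 7.57 after MGCD0103. On the 75th percentile scale the second Cdc6 probe gave -0.89 after MGCD0103 at the 2-cell stage, where the probe used gave -1.94. In untreated samples it went the other way from GV to MII oocytes (1.38 against -3.29) and then to the 1-cell embryo (-1.08 against 0.18). It also did so over the first cleavage (-0.45 against 2.15). At the 1-cell stage it gave -0.37 after T247 and -0.25 after MGCD0103, where the probe used gave 0.81 and 0.61. The stage order, the course over the first cleavage and the 1-cell differences above thus hold for the probe used only.

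Whether an agent's effect differed between stages was tested directly. Between the 1-cell and 2-cell stages, the T247 effect became lower for 12 genes (26.1%, against 15.9% of all genes) and higher for 1 (2.17%, against 4.28%), and the MGCD0103 effect became lower for 11 (23.9%, against 16.8%) and higher for 1 (2.17%, against 6.43%). Between the 2-cell and 4-cell stages, the effect of T247 became higher for 6 genes (13.04%, against 19.3%) and lower for 3 (6.52%, against 7.73%). Pold1 had the largest reversal, with a T247 effect of -0.30 (1-cell), then 1.60 (2-cell) and -1.27 (4-cell). For Cdc6 the change over the first of these steps was -2.82 (adjusted p = 1.05e-10) for MGCD0103 and -1.80 (adjusted p = 5.12e-07) for T247. Without untreated 2-cell replicate 1 the later T247 change was called for 20 genes.

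Of 67 other replication genes on a separate list, 65 were tested. At the 1-cell stage 0 were called for either agent. At the 2-cell stage 7 fell (10.8%, against 17.2% of all genes) and 1 rose (1.54%, against 8.33%) after T247, and 9 fell (13.8%, against 16.3%) and 2 rose (3.08%, against 11.7%) after MGCD0103. Ddb1, an adaptor of the ubiquitin ligase that destroys Cdt1, rose after both (LFC 1.05 ± 0.24, adjusted p = 0.000407, and 1.28 ± 0.24, adjusted p = 3.82e-05). Nasp, a histone chaperone, fell by 1.86 ± 0.13 after T247 (adjusted p = 1.11e-12), and Chtf8, of the alternative clamp loader that acts in sister cohesion, by 1.59 ± 0.25 (adjusted p = 2.57e-06). After MGCD0103 the checkpoint clamp gene Rad9a fell by 2.10 ± 0.30 (adjusted p = 7.68e-07) and Chtf18, the partner of Chtf8, by 1.74 ± 0.23 (adjusted p = 1.82e-07). Samhd1, which degrades nucleotides, was called higher with overlapping groups (LFC 1.26 ± 0.29, adjusted p = 0.000558). The 2-cell results of these other genes include untreated replicate 1 and were not repeated without it. At the 4-cell stage 2 rose (3.08%, against 11.0%) and 4 fell (6.15%, against 6.41%) after T247.

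Set beside the promoters, E2F-type letters stood in 2 of the 3 genes raised by MGCD0103 at the 2-cell stage (Mcm8 and Pold1), in 2 of the 7 lowered genes with a window (Cdc6 and Cdt1) and in 10 of the 27 not called. After T247 they stood in the 1 raised gene, in 2 of 4 lowered genes (Cdt1 and Mcm7) and in 11 of 32 not called. The genes whose windows are printed thus include both directions of difference after treatment. The calls used here include untreated 2-cell replicate 1.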

How the data were processed

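RNA of 39 samples was measured on 1-colour 60-mer arrays (59305 spots, 55681 probes). The intensity values deposited by the authors had their background and spatial trend removed array by array in Agilent Feature Extraction (10.7.1.1 per the file headers, 9.5.1.1 per the submitters' notes) and were not scaled between arrays. The deposited series matrix holds log2 values that the authors filtered, filled in and smooth quantile normalized, and it served as an alternative. Probe coordinates in the files are in mm9.

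The files of all 39 samples were processed together. Probes were named by accession (27235), symbol (3581) or synonym (565). Probe choice, fill-in and normalization followed the study's methods but were rewritten here, since its packages were not used. A probe was kept when, in every condition, its positive-and-significant flag was set for 1 or more of the 3 arrays, missing values (2.10%, 0 of them in the 46 genes) were filled in from a robust covariance with 10% trimmed, each gene took its brightest probe, and log2 signals were smooth quantile normalized with a window of 0.05. A common scale within each condition lets conditions differ in their whole distribution, so that a shift of all genes counts as change. The numbers of 1-cell MGCD0103 replicate 1 are rounded to about 3 digits. R 4.3.3 with limma 3.58.1, statmod 1.5.0 and data.table (version 1.17.8) fitted 13 conditions at once, so that each gene had 1 variance, and Python 3.11.15 read the promoters. The fit was tested on simulated data with known changes. Nothing in the labels ties replicates to separate litters, so p-values measure the spread between pooled samples, averaged over the 13 conditions. Untreated 2-cell arrays spread more widely (median SD 0.41), so p-values of comparisons that include them are too small for the genes that varied there. The 3 arrays a group limit the precision.

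Values of every array are given for up to 8 called genes of largest LFC per treatment, 3 rises and 3 falls per stage step, up to 4 between agents, and Cdc6. Members and lists were chosen with earlier results of these data known. Same-numbered untreated arrays share a slide, and their deviations from the group means correlated by 0.10 on average, against -0.05 for different numbers.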

Additional observations from a re-analysis of the deposited data

Results flagged for a closer look

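The effects of an agent differed between stages, by the test of the difference itself, for 34 combinations of gene, agent and step. These differences all include the untreated 2-cell arrays, of which replicate 1 stood apart. Those of Cdc6 are for the probe used, and its second probe had LFCs of the opposite sign at the 1-cell stage.

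Between the 1-cell and 2-cell stages, the MGCD0103 effect changed by -2.82 for Cdc6, -2.51 for Fen1, -2.20 for Pole, -1.81 for Prim1 and -1.31 for Prim2, the genes of helicase loading and strand starts among them. The change was -1.67 for Mcm4 and for Gins3, -1.62 for Rpa2, -1.44 for Tk1, -1.28 for Cdt1 and -1.09 for Rrm1. Mcm8 alone changed upward, by 1.49 (limma, adjusted p = 0.0235), and in the other 11 genes the adjusted p was at most 0.000833.

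Over the same step the T247 effect changed by -1.91 for Fen1, -1.80 for Cdc6, -1.76 for Pole, -1.73 for Tk1, -1.55 for Rrm1 and -1.54 for Cdt1. It changed by -1.42 for Mcm4, -1.41 for Prim1, -1.32 for Rfc2, -1.26 for Gins3, -1.04 for Gins2 and -1.03 for Prim2, whose call was lost under 10 of 23 alternatives (-1.24 to -0.48). Pold1 changed by 1.90 (limma, adjusted p = 2.9e-06), the single upward change. The untreated arrays are those used for MGCD0103, so the lists are not independent.

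Between the 2-cell and 4-cell stages, the T247 effect changed by 1.24 for Prim2, 1.37 for Rrm1, 1.39 for Cdt1, 1.44 for Fen1, 1.56 for Tk1 and 1.67 for Pole. It changed by -2.87 for Pold1 (limma, adjusted p = 3.76e-09), -1.34 for Gins1 and -1.30 for Pold3. Pold1, the catalytic subunit of polymerase delta, thus changed in opposite directions at the 2 steps, both of which use the same 2-cell arrays. The Prim2 change at this step was lost under 4 of 23 alternatives, and that of its MGCD0103 effect under 3 of 23, the mean of its probes among them in each case.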

How the results depend on the processing

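Of 174 called combinations of gene and comparison, 94 kept their call under every alternative and 80 lost it under at least 1. The replicate block changed no call among the 46 genes (26 called from GV to MII oocytes, 27, 23 and 19 from the 1-cell to the 2-cell, the 2-cell to the 4-cell and the 8-cell to the morula stage, as without it), and neither did the slide as a random block, no detection filter or the deposited values in place of filled-in ones. Numbers called moved with scaling: from the 8-cell stage to the morula 9 (quantile) and 7 (75th percentile), for T247 at the 4-cell stage 3 (75th percentile), for the T247 change to the 2-cell stage 7 (75th percentile) and to the 4-cell stage 16 (quantile), and for MGCD0103 against T247 at the 2-cell stage 2 (quantile). With normexp they were 1 for T247 at the 1-cell stage, 3 for T247 at the 4-cell stage, 1 from the 4-cell to the 8-cell stage and 0 for MGCD0103 against T247 at the 2-cell stage, where the mean of probes also gave 0. The cause was not tested.

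Leaving out 1 array gave 1 to 2 calls for T247 at the 1-cell stage, 9 to 13 at the 2-cell stage and 5 to 8 at the 4-cell stage. It gave 0 to 1 for MGCD0103 at the 1-cell stage (1 without untreated replicate 1 or 3) and 8 to 19 at the 2-cell stage (8 without untreated replicate 3, 19 without replicate 1). Between agents it gave 0 to 0 and 1 to 2 (2 without replicate 3 of either agent). For the untreated steps in order it gave 26 to 26, 9 to 10, 25 to 28, 22 to 23, 2 to 7 (7 without 8-cell replicate 3), 18 to 20 and 2 to 3. For the changes of effect it gave 12 to 15 and 9 to 20 for T247 and 11 to 18 for MGCD0103, the highest without untreated 2-cell replicate 1.

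With the mean of probes the LFC of Gmnn reversed, to -1.03 for MGCD0103 at the 2-cell stage, -1.29 for the change of that effect and -2.50 from GV to MII oocytes. For that step the sign also reversed with quantile scaling for Cdc45 (1.16), Dbf4 (1.26), Mcm7 (1.16), Orc4 (1.099) and Pola1 (0.0243), and with 75th percentile scaling for Cdc45 (1.19), Cdt1 (0.0118), Dbf4 (1.49), Mcm7 (1.48), Orc4 (1.14), Pold3 (0.22), Prim2 (1.00), Rpa1 (0.25) and Wdhd1 (1.02). Rpa1 and Rpa2, at the fold threshold for MGCD0103, lost their calls under 7 and 8 of 17 alternatives. Signal over background limited Tyms in untreated 2-cell embryos, above background on 1 of 3 arrays.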
